A study of Mus musculus with 36 samples.

Results

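Receptor tyrosine kinases are cell surface proteins that bind a growth factor and pass the signal inward by phosphorylating themselves and other proteins. The transcripts of 10 of them were followed in mouse liver: Ntrk2, Erbb3, Erbb2, Egfr, Met, Fgfr4, Fgfr2, Epha2, Pdgfra and Axl. They were chosen by name from the 53715 genes of the count table, and all 10 were among the 14068 genes with enough counts to be tested. Ntrk2 and Erbb3 head the list because earlier results of these data showed them differing between diets, so their differences are given as descriptions, and counts of calls that include them are printed but not read as support.

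Livers came from male C57BL/6 mice, an inbred strain, at 10 weeks of age, and each RNA sample was sequenced from a directional library. From 4 weeks of age and for 6 weeks, the control mice ate AIN93G, a purified rodent diet, and the other groups ate it with 10% red tomato powder or 10% tangerine tomato powder. The diets were matched in macronutrients, and mice were assigned to them at random. The 36 libraries, 12 per diet, each carried their own mouse number and were taken as separate mice, although the labels give 11 to 12 per group. No genotype, batch or time of sampling was named in the labels used here.

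The known biology of these receptors gives them different roles in the liver. EGFR and MET, the receptors for epidermal growth factor and hepatocyte growth factor, act in hepatocytes and are best known there for regeneration after tissue loss. FGFR4 works with the co-receptor beta-Klotho to receive the gut hormone FGF15, which lowers bile acid synthesis. ERBB3 binds neuregulins but has a weak kinase of its own, so it signals through partners such as ERBB2 and EGFR. NTRK2, also called TrkB, is the receptor for brain-derived neurotrophic factor (BDNF) and is best known from neurons.

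Total counts per library ranged from 21290169 to 33810573. The labelled tissue was borne out by the hepatocyte markers Alb, Apoa1, Ttr, Serpina1a and Hnf4a, which were present in every library and summed to between 79900 and 120000 CPM (counts scaled to a common library size). Libraries are named by their diet and mouse number. The library red 186 had T cell markers at a sum of 171 CPM, against at most 4.82 CPM in the others, and tangerine 216 had exocrine pancreas markers at 11.8 CPM, against at most 0.33 CPM. Fits without this pair are given where they change a call.

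The stretches upstream of the start sites of Ntrk2 and Epha2 are shown because these members had the largest fitted differences between the tomato diets. They are the 250 bases before each RefSeq start on build GRCm38.p6, read 5′ to 3′ on the gene's plus strand, at chr13:58806319-58806568 for Ntrk2 and chr4:141300971-141301220 for Epha2. Capitals mark motif matches on either strand.
Ntrk2: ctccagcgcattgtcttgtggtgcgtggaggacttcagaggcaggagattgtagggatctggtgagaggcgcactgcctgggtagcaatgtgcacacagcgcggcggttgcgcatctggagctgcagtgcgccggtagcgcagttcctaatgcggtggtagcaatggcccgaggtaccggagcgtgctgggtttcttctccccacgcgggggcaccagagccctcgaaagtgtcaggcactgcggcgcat
Epha2: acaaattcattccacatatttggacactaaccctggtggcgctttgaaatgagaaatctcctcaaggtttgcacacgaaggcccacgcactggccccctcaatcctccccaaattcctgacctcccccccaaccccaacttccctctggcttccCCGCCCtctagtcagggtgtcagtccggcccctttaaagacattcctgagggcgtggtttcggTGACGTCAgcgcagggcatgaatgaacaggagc
The motifs searched were the E-box CACGTG and the D-box TTATGTAA, known as binding sites of clock factors, the GC box GGGCGG, the cyclic AMP response element TGACGTCA and the forkhead motif GTAAACA. No motif contains another. The Ntrk2 stretch held none of them, and the Epha2 stretch held 1 GC box, read on the other strand, and 1 cyclic AMP response element. Among 32851 RefSeq stretches of this length, 6.02% held the E-box, 0.819% the D-box, 32.7% the GC box, 1.55% the cyclic AMP response element and 3.17% the forkhead motif. RefSeq stretches were matched for 9 of the 10 members. Met was the only one of these 9 with an E-box, and none had a D-box. The absence of a match says only that these letters are not in these windows.

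Ntrk2 was the member with the largest difference between diets. The gene (ENSMUSG00000055254.15) lies on the plus strand at chr13:58806569-59133970 and has 10 annotated transcripts in GENCODE M21, 7 of them coding. Control livers ranged from 42.0 to 104 CPM with a median of 53.6 CPM and a mean of 58.8 ± 19.1 CPM (SD, n = 12). Red tomato livers ranged from 9.28 to 50.8 CPM with a median of 24.9 CPM and a mean of 25.5 ± 12.4 CPM (SD, n = 12). Tangerine tomato livers ranged from 35.9 to 60.8 CPM with a median of 50.4 CPM and a mean of 48.8 ± 9.16 CPM (SD, n = 12). Of the 12 red livers, 11 lay below every control liver, and 6 of the 12 tangerine livers lay above every red liver. Of the 12 tangerine livers 4 lay below every control liver, and the other 8 lay within the control range.

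The fitted log2 fold change of Ntrk2 in red against control was -1.21 (SE 0.203), which is 0.43 times the control level. It was 0.94 (SE 0.202) in tangerine against red, a 1.92-fold higher level, and -0.27 (SE 0.199) in tangerine against control. These values come from the contrasts that chose the gene. Ntrk2 also spread widely among mice on the same diet. Its highest red liver was 5.47 times its lowest, against 2.48 times among controls and 1.69 times among tangerine livers. The SD of its log2 level within diets was 0.519, larger than that of 90.9% of tested genes. Gene counts do not separate the full-length receptor from the truncated forms that lack the kinase. In whole tissue, fewer cells of a type and less RNA per cell cannot be told apart.

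Erbb3 (ENSMUSG00000018166.8, minus strand, chr10:128567523-128589652) was highest on tangerine tomato. Control livers ranged from 96.5 to 168 CPM around a median of 136 CPM, with a mean of 136 ± 26.0 CPM (SD, n = 12). Red livers ranged from 144 to 192 CPM around a median of 166 CPM, with a mean of 163 ± 15.3 CPM (SD, n = 12). Tangerine livers ranged from 129 to 241 CPM around a median of 185 CPM, with a mean of 185 ± 27.9 CPM (SD, n = 12). All 12 red livers were above the control median, and 10 of the 12 tangerine livers lay above every control liver. The fitted log2 fold change was 0.26 (SE 0.0881) in red against control and 0.44 (SE 0.0882) in tangerine against control, that is 1.36-fold, and these comparisons share the control livers. Between the tomato diets it was 0.18 (SE 0.088), and the ranges overlapped. These are likewise the values on which Erbb3 was chosen.

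**Figure D1:**
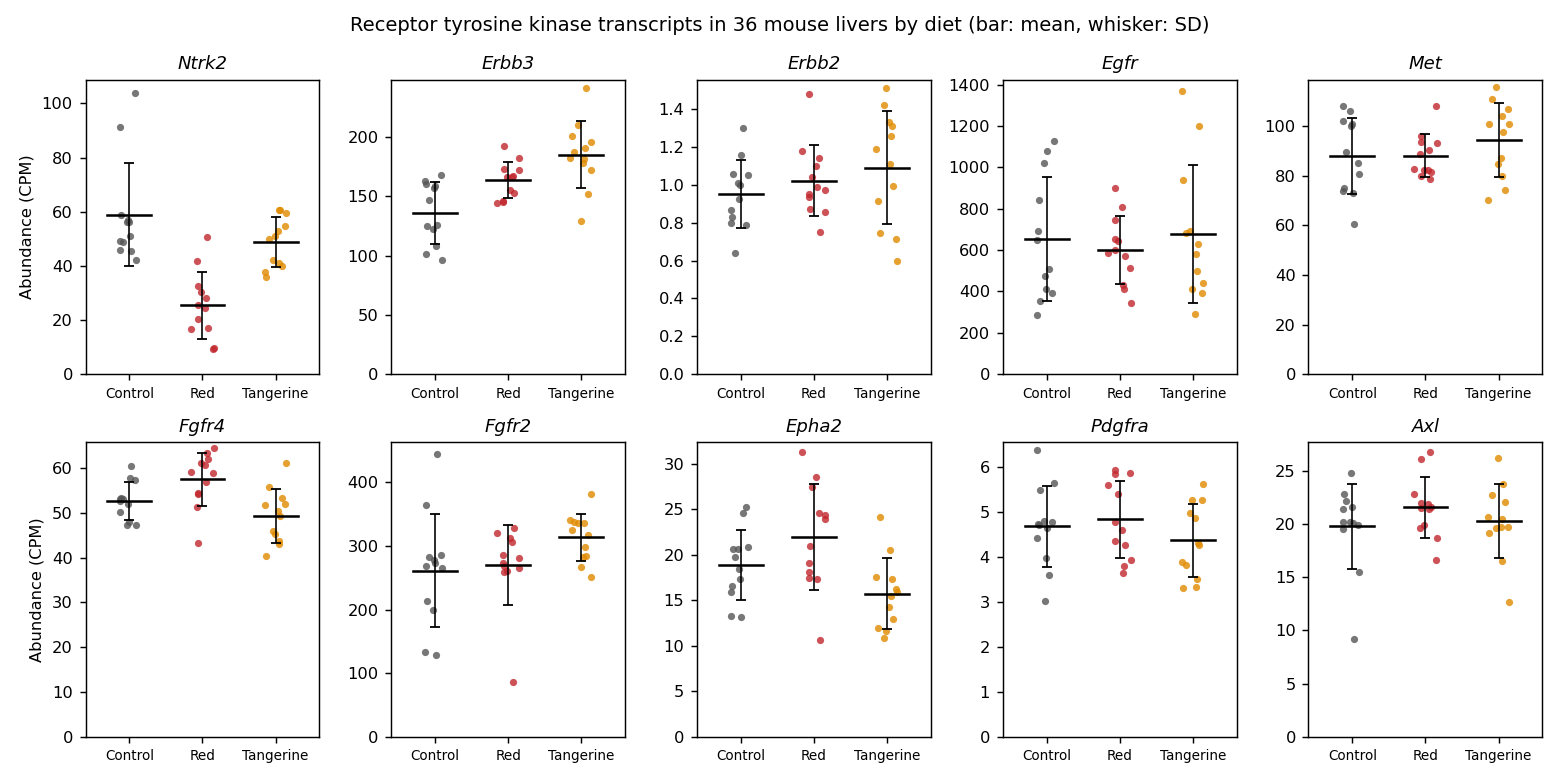
Abundance in CPM (vertical axes, each from 0) of the 10 receptor genes in the 12 livers of each diet, 1 point per liver, with the mean as a bar and the SD as a whisker. The red livers of Ntrk2 (9.28 to 50.8 CPM) sit mostly below the controls (42.0 to 104 CPM), and Egfr spreads from 284 to 1130 CPM among controls.

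The count of members past the threshold was small in each comparison. Calls were made with edgeR's quasi-likelihood test at a Benjamini-Hochberg adjusted p below 0.05 over all tested genes. In red against control, 1 of 10 members was called (Ntrk2, lower), where 21 genes or 0.149% of all tested genes were called. None of the 10 was called by edgeR in tangerine against control, where 2 genes or 0.0142% were called. DESeq2 called 1 there (Erbb3) and limma-voom 0. In tangerine against red, 1 member was called (Ntrk2, higher), where 241 genes or 1.71% were called. Since Ntrk2 and Erbb3 were chosen on these contrasts, nothing is read from their calls. At an unadjusted p below 0.05 the members counted were 3, 1 and 4 of 10 in the same order of comparisons, where 13.3%, 5.47% and 15.1% of all tested genes passed. These members were Ntrk2, Erbb3 and Fgfr4 in red against control, Erbb3 in tangerine against control, and Ntrk2, Erbb3, Fgfr4 and Epha2 in tangerine against red. The median log2 fold change of the 10 members was 0.08, 0.04 and 0.09, against -0.005, -0.012 and -0.005 over all tested genes.

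Fgfr4 and Epha2 came nearest to the threshold among the members not singled out beforehand, and both had higher means on red than on tangerine tomato. Fgfr4 (chr13:55152640-55168759, plus strand) had a mean of 52.7 ± 4.23 CPM in control, 57.5 ± 5.97 CPM in red and 49.3 ± 5.95 CPM in tangerine livers (SD, n = 12 each). Its tangerine livers ranged from 40.3 to 61.2 CPM around a median of 49.8 CPM, and its red livers from 43.2 to 64.5 CPM around a median of 58.9 CPM, so the groups overlapped, although 11 of 12 tangerine livers lay below the red median. The log2 fold change in tangerine against red was -0.22 (SE 0.0621, edgeR adjusted p = 0.0551). It passed the threshold in 4 of 11 other settings, among them the fit without red 186 and tangerine 216 (-0.23, edgeR adjusted p = 0.0464). With a score of clock gene levels as a covariate it was -0.13 (edgeR adjusted p = 0.461).

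Epha2, a receptor for ephrin-A ligands on neighbouring cells (chr4:141301240-141329384, plus strand), averaged 18.9 ± 3.85 CPM in control, 22.0 ± 5.82 CPM in red and 15.7 ± 3.85 CPM in tangerine livers (SD, n = 12 each). Red livers ranged from 10.6 to 31.3 CPM around a median of 22.5 CPM and tangerine livers from 10.9 to 24.1 CPM around a median of 15.7 CPM. The ranges overlapped, with 11 of 12 tangerine livers below the red median. The log2 fold change in tangerine against red was -0.48 (SE 0.138, edgeR adjusted p = 0.061), or 0.72-fold. Against control the log2 fold change of Epha2 was 0.22 in red (edgeR adjusted p = 0.507) and -0.26 in tangerine (edgeR adjusted p = 0.935).

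The main growth receptors of hepatocytes did not pass the test in any comparison. Met (chr6:17463800-17573980) averaged 87.9 ± 15.4 CPM in control, 88.2 ± 8.68 CPM in red and 94.4 ± 14.8 CPM in tangerine livers (SD, n = 12 each). The 95% interval of its log2 fold change ran from -0.16 to 0.17 in red against control and from -0.07 to 0.27 in both comparisons of tangerine. Egfr (chr11:16752203-16918158) averaged 654 ± 300 CPM, 602 ± 164 CPM and 678 ± 334 CPM in the same order. Its control livers ran from 284 to 1130 CPM, its red livers from 345 to 901 CPM and its tangerine livers from 291 to 1370 CPM, so the ranges overlapped widely. The spread of Egfr within diets was an SD of 0.598 in log2, larger than that of 94.9% of tested genes. Accordingly its interval in red against control was wide, from -0.58 to 0.34, and differences within that interval are not excluded by these livers.

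Erbb2, the preferred partner of ERBB3, was near the lower end of what was tested, with 14 to 49 counts per library. It averaged 0.953 ± 0.182 CPM in control, 1.02 ± 0.19 CPM in red and 1.09 ± 0.297 CPM in tangerine livers (SD, n = 12 each). The log2 fold change in tangerine against control was 0.20, with a 95% interval from -0.07 to 0.47 (edgeR adjusted p = 0.98). The 3′ end of Erbb2 overlaps Mien1 on the other strand by 9 bases, and Mien1 averaged 19.6 CPM. Erbb4, the other neuregulin receptor, is not a member and averaged 2.98 ± 0.724 CPM, 2.07 ± 0.528 CPM and 2.74 ± 1.26 CPM (SD, n = 12 each). Its log2 fold change in red against control was -0.52 (edgeR adjusted p = 0.209).

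Pdgfra, a receptor for platelet-derived growth factor that marks mesenchymal cells, averaged 4.68 ± 0.903 CPM, 4.83 ± 0.855 CPM and 4.37 ± 0.812 CPM in control, red and tangerine livers (SD, n = 12 each). Axl, a receptor for GAS6 found on macrophages and other non-parenchymal cells, averaged 19.8 ± 4.01 CPM, 21.6 ± 2.85 CPM and 20.3 ± 3.44 CPM. Neither passed the test in any comparison, and their 6 adjusted p-values from edgeR lay between 0.546 and 1.0. The intervals of the log2 fold change stayed between -0.36 and 0.33 for both genes in all 3 comparisons.

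Fgfr2, a receptor for several fibroblast growth factors, averaged 261 ± 88.5 CPM, 271 ± 63.1 CPM and 314 ± 37.2 CPM in control, red and tangerine livers (SD, n = 12 each) and did not pass the test. Its level is uncertain for a reason found in the table. GENCODE M21 gives the identifier a span of 2.96 Mb on chromosome 7, and all 68 genes inside that span, 29 of them coding, were at 0 in every library. One of them is Oat, an enzyme of pericentral hepatocytes. The pattern held across the table: 99.5% of the 550 coding genes nested in another gene on the opposite strand, with no exon shared, were at 0 in every library, against 22.8% of 11931 genes without overlap. Whether reads of nested genes were added to the surrounding gene or dropped cannot be told apart from the counts.

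**Figure D2:**
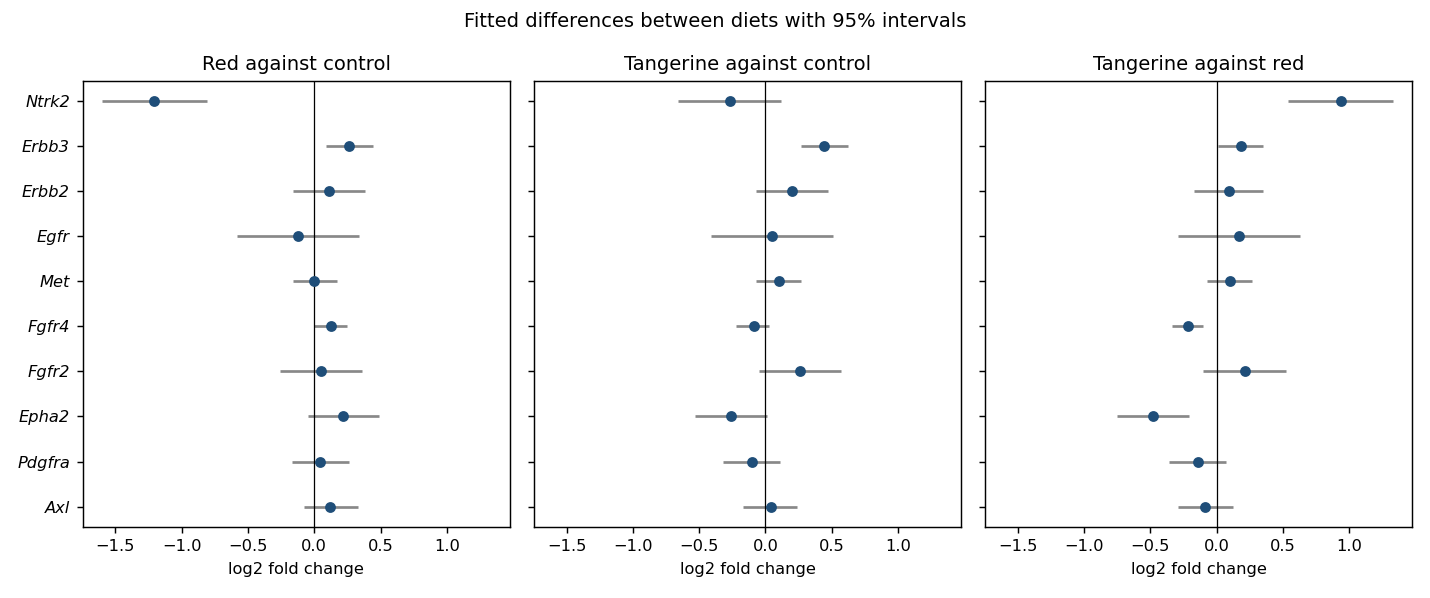
Fitted log2 fold change (horizontal axes) of the 10 receptor genes in red against control, tangerine against control and tangerine against red, with points for the estimate and lines for the 95% interval. Ntrk2 stands at -1.21 in the first panel and 0.94 in the third, Erbb3 at 0.44 in the second, and the other members lie between -0.48 and 0.26.

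Levels were compared between genes only per length, as CPM per kilobase of annotated exon averaged over 36 livers. The order was Egfr (56.9), Fgfr2 (27.3), Erbb3 (26.8), Fgfr4 (between 11.4 and 18.2 in single livers), Met (11.7), Axl (4.08), Epha2 (4.03), Ntrk2 (2.30), Pdgfra (0.461) and Erbb2 (0.196). Fgfr2 exceeded Erbb3 in 18 of 36 livers and Axl exceeded Epha2 in 23 of 36, so these neighbours did not differ beyond their spread. Each other neighbouring pair kept its order in at least 32 of 36 livers. Because reads may have been counted over introns, the order was also taken per kilobase of gene span. On that scale Erbb3 came first (7.29), followed by Egfr (3.88), Fgfr4 (3.30) and Met (0.819), while Fgfr2 went from the second place to the ninth (0.0952) and Erbb2 remained last (0.0405).

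Among the ligands and co-receptors of these receptors, the neurotrophin genes were those past the test. Of 35 listed genes 25 were tested, and in tangerine against red 1 rose and 1 fell, where 1.71% of all tested genes were called, with a median log2 fold change of -0.05 over the 25. The comparisons with control gave no edgeR call among them, where edgeR called 0.149% of all tested genes in red and 0.0142% in tangerine. At an unadjusted p below 0.05 there were 5 of 25 in red and 0 in tangerine, where 13.3% and 5.47% of all tested genes passed. In tangerine against red 7 of 25 reached an unadjusted p below 0.05, 3 higher and 4 lower, where 15.1% of all tested genes did. DESeq2 called 2 of the 25 in red against control and 3 in tangerine against red, where it called 167 and 421 genes in all. For limma-voom these numbers were 4 and 5, where it called 1504 and 746 genes in all. Neither tool called any of the 25 in tangerine against control. Bdnf, the ligand of NTRK2, was low in all livers. It ranged from 0.603 to 2.65 CPM in control (median 1.87), from 0.658 to 1.55 CPM in red (median 1.12) and from 0.882 to 3.16 CPM in tangerine livers (median 2.19). The means were 1.86 ± 0.535 CPM, 1.12 ± 0.267 CPM and 2.05 ± 0.67 CPM (SD, n = 12 each). Of the 12 tangerine livers 9 lay above every red liver, while the red range lay inside the control range.

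Bdnf rose in tangerine against red by 0.87 on the log2 scale (SE 0.184, edgeR adjusted p = 0.0146), which is 1.82-fold. In red against control its log2 fold change was -0.73 (SE 0.185) and did not pass (edgeR adjusted p = 0.0671), although all 12 red livers lay below the control median. The correlation of Ntrk2 with Bdnf over the 36 livers, centred within diets, was r = -0.13 (permutation p = 0.402) and rho = -0.23 (permutation p = 0.18), and r was -0.12 without the 2 livers farthest from the median of Bdnf. This relation was computed after the values had been seen.

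Bdnf also varied with cell type markers within diets, in 11 relations added after values had been seen. With pericentral hepatocyte markers r was 0.47 (permutation p = 0.00638, adjusted 0.0351), rho was 0.46 (permutation p = 0.0077, adjusted 0.0282) and r was 0.48 without the 2 farthest livers. Within control, red and tangerine livers this r was 0.51, -0.24 and 0.79. With Kupffer cell markers r was -0.45 (permutation p = 0.0138, adjusted 0.0506), rho was -0.55 (permutation p = 0.00087, adjusted 0.00478) and r was -0.43 without the 2 farthest livers. Within control, red and tangerine livers this r was -0.56, -0.0 and -0.62. The part of these in the difference of Bdnf between diets was not tested.

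Ngfr, which encodes a receptor that binds all neurotrophins and can act beside the Trk receptors, fell in tangerine against red. It averaged 5.01 ± 1.57 CPM in control, 6.65 ± 1.15 CPM in red and 4.59 ± 1.04 CPM in tangerine livers (SD, n = 12 each). Red livers ranged from 5.09 to 8.61 CPM around a median of 6.65 CPM and tangerine livers from 2.88 to 6.19 CPM around a median of 4.49 CPM, and 9 of 12 tangerine livers lay below every red liver. The log2 fold change in tangerine against red was -0.53 (SE 0.133, edgeR adjusted p = 0.0287). Without red 186 and tangerine 216 it was -0.51 and the edgeR adjusted p was 0.0801, so the call was lost. Red against control gave 0.41 (edgeR adjusted p = 0.158).

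Nrg4, a neuregulin that binds ERBB4, was widely spread and did not pass. It averaged 4.5 ± 1.84 CPM in control, 2.28 ± 0.943 CPM in red and 4.56 ± 3.29 CPM in tangerine livers (SD, n = 12 each). The log2 fold change was -0.98 in red against control (edgeR adjusted p = 0.115) and 1.01 in tangerine against red (edgeR adjusted p = 0.0589). Over the other settings it ran from -1.10 to -0.11 in red against control, passing in 2 of 11, and it passed in 4 of 11 in tangerine against red. Tangerine livers ran from 1.97 to 12.8 CPM around a median of 2.96 CPM, and 4 of the 12 lay above every red liver. All 12 tangerine livers lay above the red median of 1.86 CPM.

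The main ligands of the other receptors did not pass in any comparison. Nrg1, a ligand of ERBB3, averaged 4.24, 3.96 and 4.08 CPM in control, red and tangerine livers, and Hgf, the ligand of MET, 8.70, 8.62 and 8.24 CPM. Efna1, an ephrin that binds EPHA2, averaged 40.7, 46.7 and 41.9 CPM, and Gas6, the ligand of AXL, 17.6, 17.6 and 15.5 CPM. Pdgfa averaged 6.25, 5.23 and 6.18 CPM. Egf was at the low end with 7 to 31 counts per library. Fgf15, which is made in the gut, had 0 counts in all 36 livers, but whether it overlaps another gene was not looked up. The SDs of Nrg1, Hgf, Efna1, Gas6 and Pdgfa were between 14.7% and 37.9% of their means in each diet (n = 12).

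**Figure D3:**
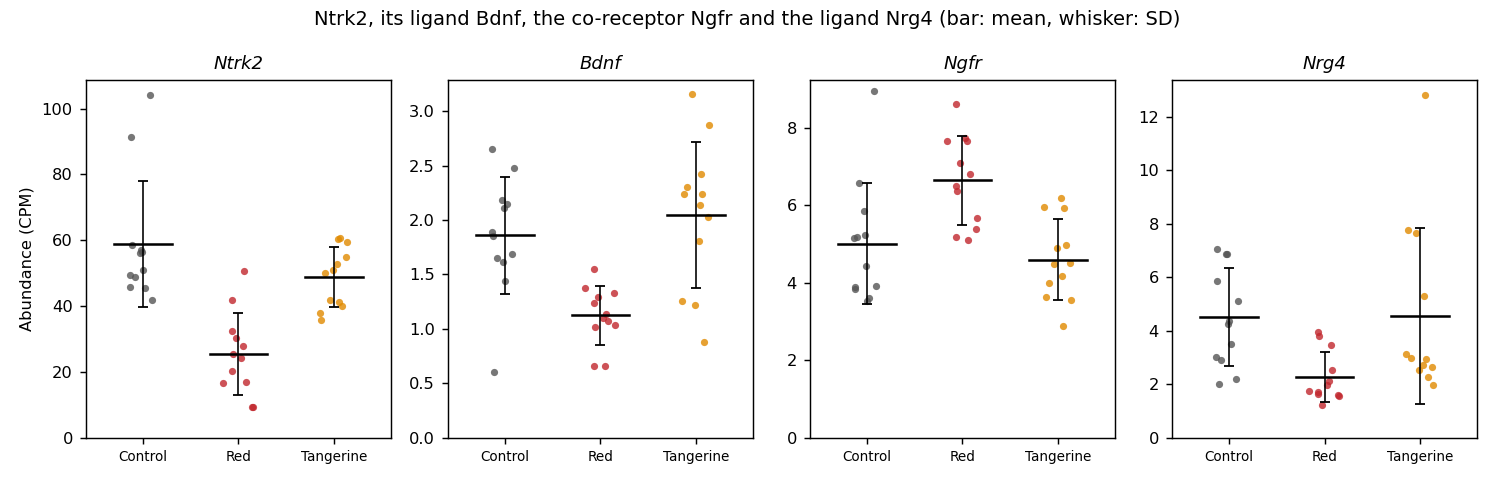
Abundance in CPM (vertical axes, each from 0) of Ntrk2, its ligand Bdnf, the neurotrophin receptor Ngfr and the neuregulin Nrg4 in the 12 livers of each diet, 1 point per liver, with the mean as a bar and the SD as a whisker. Red livers average 1.12 CPM of Bdnf against 2.05 CPM in tangerine livers, and 6.65 CPM of Ngfr against 4.59 CPM.

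None of the other receptor tyrosine kinases was called by edgeR in any comparison, with 27 of 48 listed genes tested. At an unadjusted p below 0.05 they counted 2, 0 and 3 in red against control, tangerine against control and tangerine against red, where 13.3%, 5.47% and 15.1% of all tested genes passed. Of the 24 adaptors and negative regulators, which carry or damp the signal, edgeR called none either, beside the same shares. In the same order 3, 1 and 4 of the 24 reached an unadjusted p below 0.05, beside the same 13.3%, 5.47% and 15.1%. DESeq2 called none of either list, whereas limma-voom called 1 of the other kinases in red against control and 1 in tangerine against red, and 1 of the adaptors and regulators in red against control, out of the 1504 and 746 genes it called in these comparisons. Grb7, an adaptor of ERBB2 and ERBB3, had a log2 fold change of 0.30 in tangerine against control (edgeR adjusted p = 0.587). Rnf41, a ubiquitin ligase that lowers ERBB3 protein, had 0.17 in red against control (edgeR adjusted p = 0.23).

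Genes that respond early to ERK, the kinase downstream of these receptors, were not called by edgeR in any comparison either. Since edgeR called 0.149%, 0.0142% and 1.71% of all tested genes, this lack of calls is not read as a result about ERK. Of 22 listed genes 20 were tested, and 3, 2 and 3 reached an unadjusted p below 0.05, beside the same shares of all tested genes (13.3%, 5.47% and 15.1%). In red against control DESeq2 called 1 of them among 167 genes in all and limma-voom 2 among 1504. Fos averaged 2.01 ± 1.78 CPM in control and 0.676 ± 0.291 CPM in red livers (SD, n = 12 each), a log2 fold change of -1.56 (edgeR adjusted p = 0.0946). Fosb gave -1.92 (edgeR adjusted p = 0.134). Dusp6, a phosphatase that damps ERK, averaged 46.2 CPM in control and 36.6 CPM in both tomato groups, with edgeR adjusted p-values of 0.374 and 0.912. Ccnd1, a cell cycle gene, averaged 14.9 CPM in control and 21.5 CPM in tangerine livers (edgeR adjusted p = 0.738).

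By edgeR calls, clock gene levels differed most between the tomato diets. Of 13 clock genes tested, edgeR called 3 higher and 4 lower in tangerine against red, and none in the comparisons with control. At an unadjusted p below 0.05 there were 12 in tangerine against red, 11 in red against control and 0 in tangerine against control. Of all tested genes, 15.1%, 13.3% and 5.47% reached that p in this order, and edgeR called 1.71%, 0.149% and 0.0142%. DESeq2 called 9, 1 and 0 clock genes in this order, out of 421, 167 and 7 genes in all. For limma-voom these were 9, 10 and 0, out of 746, 1504 and 2. The median log2 fold change of the 13 was 0.41 in tangerine against red and -0.43 in red against control. A clock score, the first principal component of these genes signed so that high Dbp gives a high value, averaged 0.80 ± 2.82 in control, -2.51 ± 2.20 in red and 1.71 ± 2.27 in tangerine livers (SD, n = 12 each). Its ranges overlapped between all 3 diets, and its difference between diets was not tested. With this score as a covariate the log2 fold change in tangerine against red was 0.85 (SE 0.234) for Ntrk2 against 0.94 without it. For Bdnf it was 0.55 against 0.87 and for Ngfr -0.22 against -0.53, with edgeR adjusted p-values of 0.328 and 0.536. The calls of Ntrk2, Bdnf and Ngfr in this comparison were all lost. For Fgfr4 the value was -0.13 against -0.22, for Epha2 -0.34 against -0.48 and for Nrg4 -0.20 against 1.01. In red against control the value of Fgfr4 was 0.05 against 0.13, that of Epha2 0.11 against 0.22 and that of Nrg4 -0.11 against -0.98. Ntrk2 stayed called in red against control with the clock score, where 3 genes were called in all. It was not called there once a feeding score, described below, was added as well. With the clock score as the only covariate edgeR called 0 genes in tangerine against red, with 1735 at an unadjusted p below 0.05, where it called 241 without it.

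Within diets no relation of a member passed the test, neither to the clock score nor to a feeding score, the mean of 8 fed-state genes less that of 8 fasted-state genes. The feeding score averaged 0.345 ± 1.02 in control, -0.322 ± 1.05 in red and -0.0226 ± 1.19 in tangerine livers (SD, n = 12 each). Its ranges overlapped, and its difference between diets was not tested. In red against control 4 of the 8 fed-state genes reached an unadjusted edgeR p below 0.05, all lower. Of the 8 fasted-state genes 2 did, 1 higher and 1 lower, where 13.3% of all tested genes did. All 20 relations were tested by permutation within diets, and the lowest adjusted p was 0.126 for r and 0.1 for rho, both for Met with the feeding score. That relation had r = -0.46 (permutation p = 0.00628) and rho = -0.48 (permutation p = 0.005), and r was -0.44 without the 2 farthest livers. The next lowest adjusted p for rho was 0.105, for Fgfr4 with the clock score (rho = -0.42, r = -0.35) and Erbb3 with the feeding score (rho = -0.41, r = -0.37). For Ntrk2 with the clock score r was 0.15 (permutation p = 0.377, adjusted 0.676), rho was 0.04 (permutation p = 0.838), and r was 0.07 without the 2 farthest livers. Its r was -0.19 within control, 0.65 within red and -0.47 within tangerine livers, with adjusted permutation p-values of 0.753, 0.397 and 0.355.

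Axl and Pdgfra varied with the markers of non-parenchymal cells. These relations, 110 in all over 10 members and 11 marker lists, were computed on log2 values centred within diets, and their tests were added after the correlations had been seen. Axl followed the summed markers of Kupffer cells, the resident macrophages, with r = 0.90 and rho = 0.82 (each with permutation p = 1e-05, the smallest these permutations can give, adjusted 0.0011). Without the 2 farthest livers r was 0.82, and within control, red and tangerine livers it was 0.94, 0.76 and 0.92. The Kupffer sum, with all 8 markers tested, ranged from 108 to 314 CPM in control, 185 to 372 CPM in red and 143 to 293 CPM in tangerine livers.

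Pdgfra followed the summed markers of hepatic stellate cells with r = 0.57 (permutation p = 0.00027, adjusted 0.0148) and rho = 0.62 (permutation p = 0.00014, adjusted 0.0077). Without the 2 farthest livers r was 0.57, and it was 0.50, 0.61 and 0.64 within the diets. The stellate sum ranged from 312 to 473 CPM in control, 325 to 501 CPM in red and 317 to 670 CPM in tangerine livers, and of its 12 markers 10 were tested and Lrat was at 0 throughout. Axl with sinusoidal endothelial markers gave r = 0.77 (permutation p = 0.00152, adjusted 0.0365) but rho = 0.26 (permutation p = 0.15, adjusted 0.681), and r fell to 0.14 without the 2 farthest livers, so that relation rests on those. Erbb2 with T cell markers (r = 0.39, permutation p = 0.00166, adjusted 0.0365) also passed, but its rho did not, with an adjusted permutation p of 0.153. No relation of Ntrk2, Erbb3, Egfr or Fgfr4 passed.

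**Figure D4:**
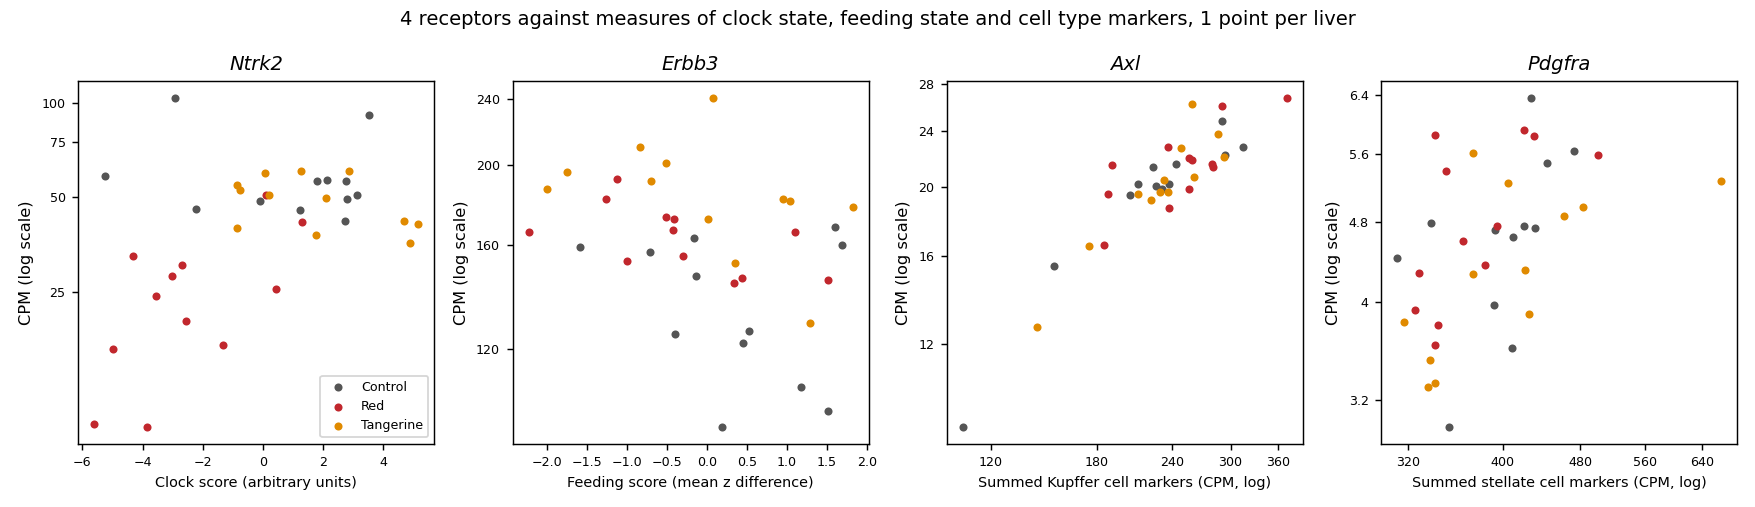
CPM on a log scale (vertical axes) of Ntrk2 against the clock score, Erbb3 against the feeding score, Axl against summed Kupffer cell markers and Pdgfra against summed stellate cell markers (CPM, log scale), 1 point per liver coloured by diet. Axl and its markers lie along a line (r = 0.90 within diets), whereas the relation of Ntrk2 to the clock score within diets is 0.15.

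Among the 45 pairs of members, Erbb3 and Met varied together most closely. Their within-diet r was 0.55 (permutation p = 0.00201, adjusted 0.0904) and rho was 0.64 (permutation p = 0.00015, adjusted 0.00675), so the rank relation passed and the linear one did not. Without the 2 farthest livers r was 0.54, and it was 0.59, 0.60 and 0.49 within the diets. These tests too were added after the correlations had been seen. Over 36 livers centred within diets, the genes with a pattern most like Ntrk2 among 10967 compared were Slc43a3 (r = 0.65), Ccdc157 (0.65), Armc7 (0.64), Abca7 (0.63) and Rnd2 (0.62). Those most like Erbb3 were Ipmk (r = 0.78), Crebrf (0.77), Khnyn (0.73), Gm34667 (0.72) and Wdr81 (0.72). These are descriptions without a test.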

How the data were processed

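The authors deposited unnormalized read counts, with genes in rows and the 36 libraries in columns. Per the submitters' processing notes FastQC, Trimmomatic, edgeR and GRCm38.p6 were used, in roles not stated. The aligner, counter and strand setting are not given in the sources used here. Columns were matched to samples by the names in the labels. Symbols, positions and exon lengths came from GENCODE M21, and upstream sequences from RefSeq on GRCm38.p6. Libraries held 21290169 to 33810573 counts, and a total this size leaves genes under about 1 CPM with few counts.

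Low-count genes were dropped by filterByExpr (count 10, total 15). Counts were scaled by TMM in edgeR 4.0.16 and tested with its robust quasi-likelihood test on all 36 libraries, with Benjamini-Hochberg adjustment over 14068 genes and a threshold of 0.05. The test was also run on simulated counts with the same dispersion for every gene, and nothing is read from that run here. CPM were computed from the counts. The prior count for log2 CPM was 2. Relations across livers were centred within diets and tested two-sided with 100000 permutations within diets, and summed marker CPM took a pseudocount of 0.5 before the log2. The mouse is taken as the replicate; where libraries of 1 diet are not separate mice, p-values measure only the spread between libraries.

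The members and lists were chosen with earlier results of these data known. Named genes were the members, their main ligands, up to 3 called genes of each list and contrast or, with none called, the 2 with the smallest p, and the 5 genes most like Ntrk2 and Erbb3. The alternatives were DESeq2 1.42.0 size factors and test, limma 3.58.1 voom, other count filters, score or mouse number covariates, only the groups compared, and leaving out red 186 and tangerine 216. Both scores together, and all alternatives for Bdnf, Ngfr and Nrg4, were added later. The overlap check, the relations of Bdnf, the tests of member pairs and of markers, and the sequences shown were chosen after values had been seen. Relations to 1 of the 11 marker lists are not reported here.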

Additional observations from a re-analysis of the deposited data

How the results depend on the processing

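No paired analysis was possible because the mouse numbers are not shared between diets. No called fold change of a member changed sign under these alternatives. The number of genes called in red against control, 21 in the reported fit, was 59 with a higher filter (mean log2 CPM from 1 upward), 167 with DESeq2, 1504 with limma-voom, 3 with the clock score, 115 with the feeding score, 53 without red 186 and tangerine 216, and 2 with both scores. In tangerine against control, 2 genes became 7 with DESeq2 and 1 with the mouse number. In tangerine against red, 241 genes became 136 without the filter, 421 with DESeq2, 746 with limma-voom, 32 with the mouse number, 86 without the pair, and 0 with the clock score alone or with both scores. Members called in red against control, 1 as reported, numbered 2 with limma-voom (Ntrk2 and Fgfr4) and 0 with both scores. In tangerine against control, 0 became 1 (Erbb3) with DESeq2 size factors, no filter, the higher filter and the DESeq2 test. In tangerine against red, 1 became 2 with the higher filter, with limma-voom and without the pair, 3 with DESeq2, and 0 with the clock score, the mouse number or both scores. Mouse numbers were spread unevenly over the diets, from 120 to 245 in control, 133 to 204 in red and 128 to 242 in tangerine livers. The labels used here tie no batch to these numbers. Ntrk2 kept the sign of its log2 fold change in all 11 alternatives, from -1.46 to -1.06 in red against control and from 0.82 to 1.26 in tangerine against red. Bdnf passed in tangerine against red in 8 of 10 alternatives and Ngfr in 7 of 11. Nrg4, not called in the reported fit, gave values between -0.20 and 1.02 in tangerine against red, below 0 with the clock score alone or with both scores. The alternative relations of members to the scores, 60 for each score, stayed on the same side of the threshold. The cause of these changes was not tested. Depth limits the genes with few counts per library, such as Erbb2 (14 to 49), Bdnf, Egf, Fos and Fosb.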

Other observations

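Several within-diet patterns outside the naming rule were looked up after values had been seen and are given as descriptions. Egfr, the member with the widest spread, was most like Ern1 (r = 0.73), Arhgap32 (0.72) and Phf8 (0.70) over the 36 livers. It was least like Nav2 (r = -0.79) and Dusp1 (-0.67). The genes least like Erbb3 were Bag5 and Ppan (r = -0.80 each), Pprc1 (-0.79) and Mphosph10 (-0.76), of which Ppan and Mphosph10 belong to ribosome assembly. The gene least like Ntrk2 was Rdh16f2 (r = -0.74), of the retinol dehydrogenase family.

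Other receptor tyrosine kinases of the list that did not pass had mean levels of 138, 135 and 143 CPM for Insr, the insulin receptor, 36.9, 41.9 and 39.5 CPM for Csf1r of macrophages, and 55.4, 56.5 and 54.3 CPM for Kdr of endothelium, in control, red and tangerine livers. Klb, the co-receptor of FGFR4, had 43.7, 40.2 and 44.8 CPM.

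The nesting pattern of the counts reaches marker genes. Of the 6 markers at 0 in all 36 livers, Oat, Lrat, Cela2a, Gfap and Tubb3 lie inside the span of another gene, and Snap25 overlaps another gene in part. A count of 0 for a nested gene says nothing about its transcript here.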
